A study of Mus musculus with 4 samples.

Results

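The genes described here are 39 genes of DNA replication and nucleotide synthesis, a list of gene symbols grouped by function; the rule uses no measured value, but the list was chosen with earlier results of these data known. They comprise 10 genes of origin recognition and licensing, 6 of helicase activation, 6 of the replicative polymerases and primase, 8 of the sliding clamp, its loader and Okazaki fragment processing, 3 of single-strand DNA binding, 5 of deoxynucleotide (dNTP) supply, and the chromatin assembly gene Chaf1a. All 39 were found among the 24015 gene symbols in the count files, and all 39 passed the low-count filter that left 14259 genes for testing.

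RNA was sequenced from mouse embryoid bodies, suspension cultures of differentiating embryonic stem cells. The labels describe stem cell lines from outbred embryos with both Trim33 alleles floxed and with UbcCreERT2, a Cre recombinase under the ubiquitin C promoter that tamoxifen activates. Addition of 4-hydroxytamoxifen on day 4 induced the loss of Trim33, and harvest was on day 7, so the RNA was taken 3 days after induction. There were 2 Control and 2 Trim33-deficient libraries, described as independent pairs. The labels call the Control genotype wild type, although the lines as described carry the floxed allele and the Cre, and they do not say whether Control bodies received tamoxifen. Effects of the drug or of Cre activity therefore cannot be told apart from those of Trim33 loss. The comparison addresses what loss of Trim33 alters in the transcripts of such bodies.

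Replication starts when the origin recognition complex, CDC6 and CDT1 load the ring of MCM2 to MCM7 onto DNA in G1. In S phase CDC45 and the GINS complex join that ring to form the active helicase, primase and DNA polymerase alpha lay down primers, and polymerases delta and epsilon extend them with the PCNA clamp. Most of these genes are transcribed at the boundary of G1 and S under E2F factors, which retinoblastoma proteins hold in check. Embryonic stem cells cycle fast with a short G1 phase and carry high levels of such transcripts, which fall as cells leave the cycle during differentiation.

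Stretches around the gene start are shown because members of this list are textbook E2F targets, and the stretches let a reader see which members hold an E2F-type sequence. They come from RefSeq (build GRCm38.p6), read along the strand of the gene, and capitals mark the E2F-type matches. The letters searched on both strands were TTTCCCGC, TTTGGCGC, TTTCGCGC and TTTGCCGC, which can overlap one another.

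Mcm5, chr8:75109340-75109379, plus strand: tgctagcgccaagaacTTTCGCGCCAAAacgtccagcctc
Mcm6, chr1:128359792-128359831, minus strand: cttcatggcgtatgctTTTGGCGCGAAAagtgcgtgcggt
Orc1, chr4:108579411-108579450, plus strand: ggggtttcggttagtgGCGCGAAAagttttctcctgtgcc
Pola1, chrX:93632270-93632309, minus strand: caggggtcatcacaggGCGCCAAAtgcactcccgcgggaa

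In Mcm5 and Mcm6 the capitals hold 2 matches on opposite strands that share 4 letters. Of the 39 genes, 32 had an entry in the RefSeq table of 300-base promoters, which run from 250 bases before the start to 50 after it. An E2F-type match was present for 12 of the 32 (37.5%), against 2.60% of all 27025 symbols in the table and 4.52% of the 10645 symbols that were also tested. The 12 were Cdc6, Cdt1, Gins3, Lig1, Mcm3, Mcm5, Mcm6, Mcm7, Orc1, Pola1, Pold1 and Rfc3. A symbol with several entries was counted if any of them held a match. Lig1 and Mcm7 also have entries without an E2F-type match. A CCAAT box, searched as CCAAT on both strands, was present for 21 of 32 (65.6%) against 41.1% of all symbols, and 8 members held both. A match is a run of letters and not a shown binding site, and its absence says only that these letters are not in this window.

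The longer stretches below belong to the 3 genes with an unadjusted p under 0.05 in the comparison of groups without a replicate block, Pold1, Mcm10 and Tyms. Bases inside the annotated gene were left out, and capitals mark CCAAT boxes.

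Pold1, chr7:44548850-44549065, minus strand: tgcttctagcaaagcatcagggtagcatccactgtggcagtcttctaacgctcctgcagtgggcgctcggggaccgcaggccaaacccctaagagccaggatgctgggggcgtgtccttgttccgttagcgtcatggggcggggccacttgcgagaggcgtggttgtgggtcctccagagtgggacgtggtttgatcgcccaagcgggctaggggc
Mcm10, chr2:5012792-5013041, minus strand: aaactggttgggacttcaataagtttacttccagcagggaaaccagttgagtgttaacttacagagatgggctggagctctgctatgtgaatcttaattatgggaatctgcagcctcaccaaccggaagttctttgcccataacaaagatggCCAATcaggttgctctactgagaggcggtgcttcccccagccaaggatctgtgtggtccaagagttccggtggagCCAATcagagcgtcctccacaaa
Tyms, chr5:30073626-30073875, minus strand: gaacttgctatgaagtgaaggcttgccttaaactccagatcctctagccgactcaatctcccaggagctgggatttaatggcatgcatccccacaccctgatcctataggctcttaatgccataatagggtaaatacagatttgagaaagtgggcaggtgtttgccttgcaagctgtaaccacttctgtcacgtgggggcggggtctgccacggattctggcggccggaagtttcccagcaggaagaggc

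Mcm10 held 2 CCAAT boxes in this stretch, while Pold1 and Tyms held neither an E2F-type match nor a CCAAT box in theirs. The E2F-type match of Pold1 lies past its start, outside the stretch shown.

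The 4 libraries held 10422738 to 13808837 counts in genes. Counts of Trim33 itself were 1203 and 1117 for Control but 608 and 495 for Trim33-deficient bodies, 42.6% of the Control level after normalisation. Control replicate 1 stood apart across all genes, where its Pearson correlations were 0.932 to 0.952 and those of the remaining library pairs 0.967 to 0.978. Markers of other cells varied between the libraries, in part with the groups. Visceral endoderm markers had log2 fold changes below 0 for 13 of 15 genes, with summed levels of 1287 and 1690 CPM in Control and 451 and 554.5 CPM in Trim33-deficient libraries, and none was at 0 in any library. The exceptions, Gata6 and Gata4, made up much of the Trim33-deficient sums. Gata6 had 28.6 and 166 CPM in Control and 138 and 252 CPM in Trim33-deficient libraries, and Gata4 had 87.9 and 171 CPM against 159.9 and 158 CPM. Pluripotency markers were below 0 for 11 of 12, with sums of 1183 and 1122 CPM against 953 and 634 CPM, also with none at 0. Neuroectoderm markers were below 0 for 10 of 10, with a median of −1.28 and sums of 699.5 and 283 CPM against 306 and 265 CPM, so that 1 Control library was high and the groups overlapped. Mesoderm markers were above 0 for 7 of the 11 tested. They summed to 326 and 1054 CPM against 764 and 1095 CPM, with Mesp1 at 0 in at least 1 library. Cardiomyocyte markers were above 0 for 11 of 11. Their sums were 253 and 644 CPM against 1794 and 488 CPM, where 1 Trim33-deficient library was high and the other lay between the Control libraries. Primitive blood markers were above 0 for 6 of the 7 tested, with sums of 4.02 and 124 CPM against 41.1 and 186 CPM. The part of these differences in the values of the replication genes was not tested.

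Replication and nucleotide synthesis transcripts differed little in level between Control and Trim33-deficient embryoid bodies. The 39 genes summed to 5072 and 4866 CPM (read counts scaled to library size by TMM) in the 2 Control libraries and to 4965 and 4425 CPM in the 2 Trim33-deficient libraries, which is 94.5% of the Control mean. The first Trim33-deficient library lay between the 2 Control libraries and the second lay below all others. In bulk RNA, fewer cycling cells and less RNA per cycling cell cannot be told apart. The log2 fold changes (Trim33-deficient over Control) ran from −0.46 for Orc1 to 0.38 for Tyms, with a median of −0.047, and 25 of 39 were below 0. Over all 14259 genes tested the median was −0.001, and 50.2% were below 0.

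The edgeR quasi-likelihood test with Benjamini-Hochberg adjustment over all genes tested called 0 of the 39 genes at an adjusted p under 0.05, and the adjusted p ran from 0.574 to 0.994. The test called 0.0140% of all genes, 2 lower and 0 higher, so 0 of 39 lies at the background. It did not call Trim33 either, at 42.6% of the Control level (edgeR adjusted p = 0.219). The lack of a call therefore does not show a lack of change. Members with an unadjusted p under 0.05 numbered 2 lower (4.78% of all genes) and 1 higher (3.06% of all genes), against 7.84% of all genes in either direction. With the replicate number as a block, Orc1 and Dut also had an unadjusted p under 0.05, which made 4 lower (6.07% of all genes) and 1 higher (5.48% of all genes), and 0 passed the adjustment. DESeq2 called 0 members as well (lowest DESeq2 adjusted p = 0.828), where it called 0.954% of the genes tested, and the authors' deposited table of 84 genes lists 0 of them. The 95% intervals bound how large a difference the libraries allow. For 38 of 39 members the interval lay wholly between −1 and 1 on the log2 scale, that is, within a 2-fold change either way, as it did for 8606 of the 14259 genes. Orc1 was the exception, with a lower bound of −1.01. The absolute log2 fold change was under 0.25 for 33 members, as it was for 8152 of the 14259 genes. It was over 0.5 for 0 members, where 20.8% of all genes exceeded 0.5. These values over all genes do not allow for level, since many genes tested have low counts.

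**Figure D1:**
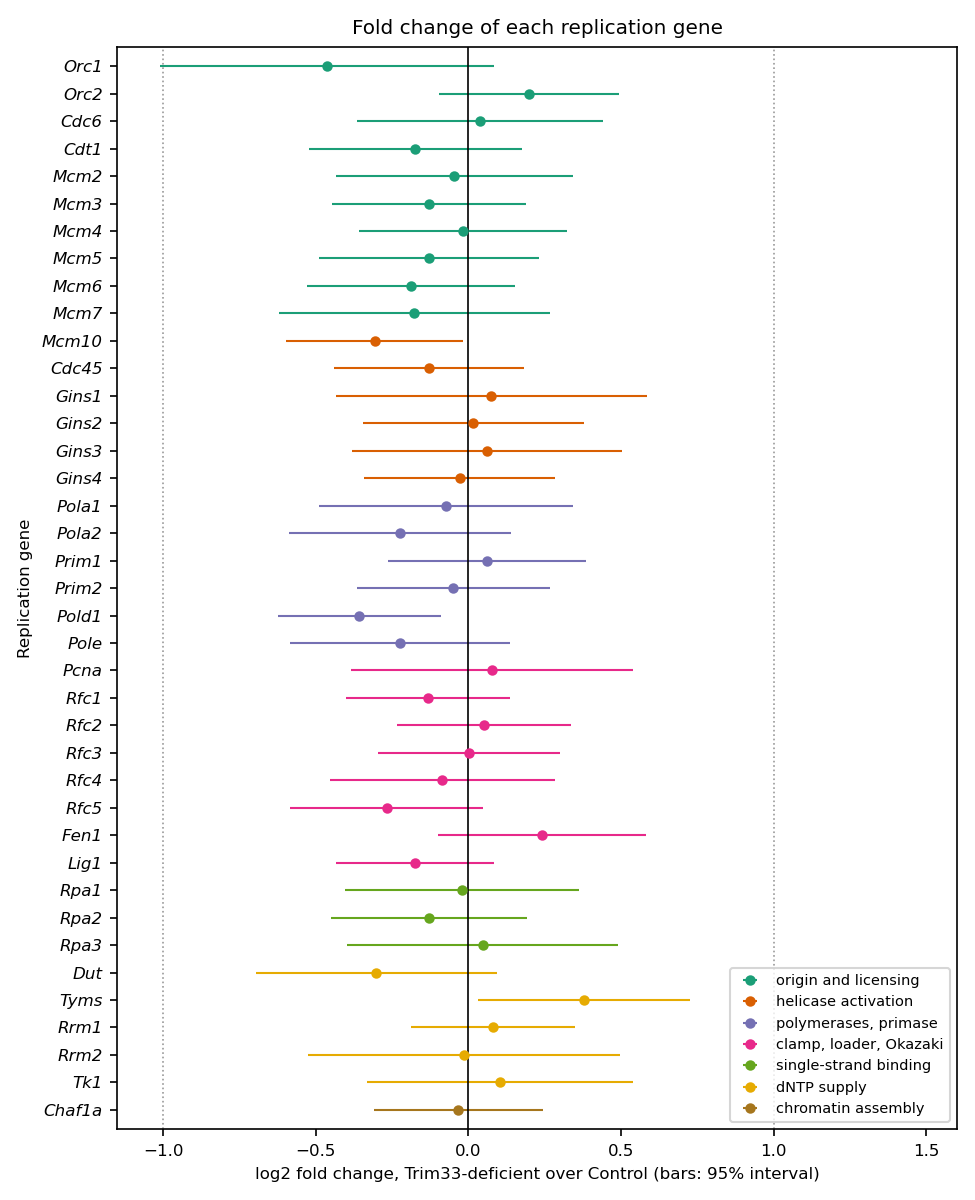
Log2 fold change (Trim33-deficient over Control, x axis) of each of the 39 replication genes (y axis), coloured by role, with bars for the 95% interval from the edgeR quasi-likelihood fit of 2 against 2 libraries and dotted lines at −1 and 1. All points lie between −0.46 and 0.38, and only the intervals of Mcm10, Pold1 and Tyms leave out 0.

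The groups did not overlap for 18 of 39 members, 13 with both Trim33-deficient libraries below both Control libraries and 5 with both above. The same held for 40.7% of all genes, 21.4% lower and 19.3% higher, so the share of 46.2% among members lies near the background, with more of it on the lower side. The difference between group means was larger than the gap between replicates in both groups for 14 members, against 27.9% of all genes. Replicate gaps were small for these genes. The median gap on the log2 CPM scale was 0.112 between the Control libraries and 0.161 between the Trim33-deficient libraries, against 0.239 and 0.207 over all genes, a comparison that does not allow for level, since many genes tested have low counts.

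Genes of origin recognition and licensing had a median log2 fold change of −0.13, with 8 of 10 below 0. Orc1, the ATP-binding subunit of the origin recognition complex whose level follows the cell cycle, had 45.1 and 35.1 CPM in Control and 32.5 and 25.6 CPM in Trim33-deficient libraries. Both Trim33-deficient values were below both Control values, but the lowest Control value and the highest Trim33-deficient value were close. Orc1 had a log2 fold change of −0.46 (SE 0.21, 95% interval −1.01 to 0.083, edgeR adjusted p = 0.663), the lowest of the 39. Orc2, a subunit that is present through the cycle, went the other way, with 73.3 and 69.5 CPM in Control and 84.5 and 79.4 CPM in Trim33-deficient libraries. Orc2 thus had a log2 fold change of 0.20 with SE 0.11 (edgeR adjusted p = 0.685), and the groups did not overlap.

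The licensing loaders overlapped or nearly so. Cdc6, the loader ATPase, had 50.9 and 47.9 CPM in Control and 55.9 and 45.5 CPM in Trim33-deficient libraries. Cdt1, the loader that geminin inhibits, had 160.1 and 136.7 CPM against 138.8 and 124.2 CPM. The Control values of Cdc6 lay inside the Trim33-deficient range, and for Cdt1 only the upper Trim33-deficient value reached into the Control range.

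The 6 subunits of the MCM ring summed to 1772 and 1691 CPM in Control and 1736 and 1466 CPM in Trim33-deficient libraries, 92.5% of the Control mean. Mcm2 had 366 and 314 CPM against 357 and 302 CPM, and Mcm5 had 313 and 282 CPM against 295 and 248.6 CPM. Mcm3 had 311 and 298 CPM against 298 and 259 CPM, and Mcm6 had 330 and 328 CPM against 314 and 263 CPM. In all of these, the second Trim33-deficient library was the lowest of the 4. It was also the lowest for Mcm7, which had 227 and 208 CPM against 219 and 165 CPM, but not for Mcm4. Mcm4 had 225 and 261 CPM against 253 and 228 CPM, so that both Trim33-deficient values lay inside the Control range, and its log2 fold change was −0.017 (SE 0.13, 95% interval −0.36 to 0.32). The 6 log2 fold changes lay between −0.19 and −0.017. For Mcm7 a copy, Gm5487, matches 72.8% of the transcript at 97.7% identity, so reads of the pair may be split or lost.

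**Figure D2:**
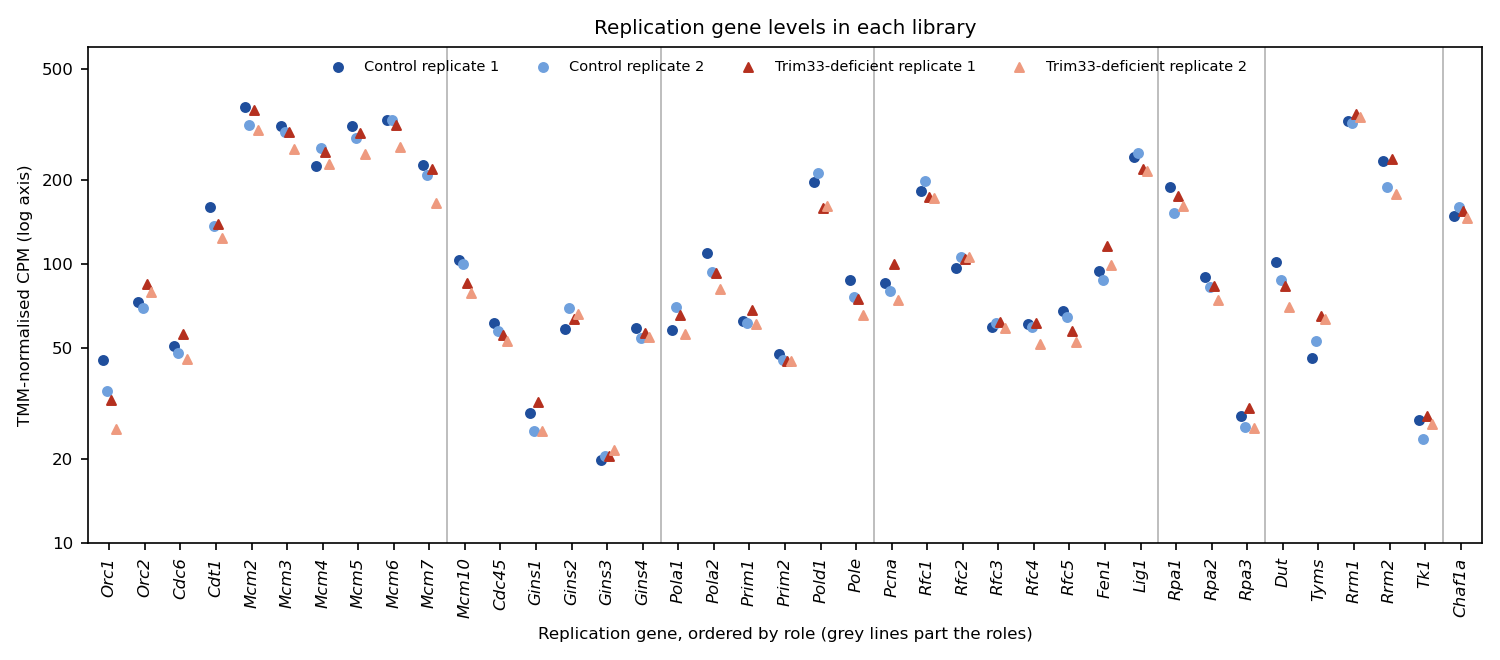
TMM-normalised CPM on a log axis for each of the 39 replication genes (x axis, by role) in the 4 libraries, circles for Control and triangles for Trim33-deficient, 1 point per library. The spread between genes is far wider than that between libraries, and for 5 of the 6 MCM ring genes the second Trim33-deficient library is the lowest point.

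Helicase activation genes had a median log2 fold change of −0.006, with 3 of 6 below 0. Mcm10, a scaffold needed to start unwinding, had 103 and 99.6 CPM in Control and 85.3 and 78.8 CPM in Trim33-deficient libraries. The groups were apart by more than either replicate gap, with 80.8% of the Control mean left. The log2 fold change of Mcm10 was −0.31 (SE 0.11, 95% interval −0.60 to −0.018, edgeR adjusted p = 0.628). Cdc45, the helicase cofactor, had 61.4 and 57.5 CPM against 55.8 and 53.0 CPM, a log2 fold change of −0.13 (SE 0.12, edgeR adjusted p = 0.782). The groups did not overlap for Cdc45, by a margin smaller than the gap between replicates.

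The 4 subunits of the GINS complex, which bridges CDC45 and the MCM ring, lay between −0.029 and 0.075. Gins2 had 58.5 and 69.6 CPM in Control and 63.3 and 66.2 CPM in Trim33-deficient libraries, inside the Control range, with a log2 fold change of 0.016 (SE 0.14). Gins1 had 29.1 and 25.2 CPM against 32.0 and 25.2 CPM, and Gins4 had 58.8 and 54.3 CPM against 56.4 and 54.5 CPM. Gins3, the member with the lowest counts, had 19.8 and 20.4 CPM against 20.5 and 21.4 CPM, a separation of under 0.1 on the log2 scale. Of the 4, only Gins3 had groups that did not overlap.

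Polymerase and primase genes had a median log2 fold change of −0.15, with 5 of 6 below 0, and their sum of 562 and 559 CPM in Control and 505 and 470 CPM in Trim33-deficient libraries was 86.9% of the Control mean. Pold1, the catalytic subunit of polymerase delta, had 197.5 and 212 CPM in Control and 158 and 161 CPM in Trim33-deficient libraries. Both Trim33-deficient values were lower by more than the gap between replicates, and 78.1% of the Control mean was left. Pold1 had the smallest p of the 39, with a log2 fold change of −0.36 (SE 0.10, 95% interval −0.62 to −0.090, edgeR adjusted p = 0.574).

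Pole, the catalytic subunit of polymerase epsilon, had 87.2 and 76.4 CPM against 74.6 and 65.6 CPM, a log2 fold change of −0.22 (SE 0.14, edgeR adjusted p = 0.703). Pola2, the accessory subunit of polymerase alpha, had 109.5 and 93.9 CPM against 92.8 and 81.5 CPM, and the 2 groups of Pole and of Pola2 were parted by less than their replicate gaps. Pola1, the catalytic subunit of polymerase alpha, had 58.2 and 69.9 CPM against 65.6 and 56.0 CPM and overlapped in part. The primase genes lay near 0. Prim1 had 62.4 and 61.5 CPM against 68.6 and 60.8 CPM. Prim2 had 47.4 and 45.4 CPM against 44.8 and 44.9 CPM, apart by a narrow margin, with a log2 fold change of −0.050 (SE 0.12, 95% interval −0.37 to 0.27).

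Clamp, clamp loader and Okazaki fragment genes had a median of −0.041, with 4 of 8 on each side of 0. Pcna, the sliding clamp, had 85.5 and 79.9 CPM in Control and 99.96 and 74.4 CPM in Trim33-deficient libraries, so the Control values lay inside the Trim33-deficient range. Pcna has a copy, Pcna-ps2, that matches 51.4% of its transcript at 99.2% identity, and reads of the pair may be lost or split. Fen1, the flap nuclease that trims Okazaki fragments, had 94.4 and 87.4 CPM against 115.8 and 99.1 CPM, with groups that did not overlap and a log2 fold change of 0.24 (SE 0.13, edgeR adjusted p = 0.678). The annotated gene Gm10143 shares 80.5% of the Fen1 transcript. Lig1, the ligase that seals the fragments, had 241 and 251 CPM against 219 and 216 CPM, lower in both Trim33-deficient libraries by more than the replicate gaps, with a log2 fold change of −0.17.

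Among the 5 subunits of the clamp loader, Rfc5 had 67.8 and 64.5 CPM in Control and 57.3 and 52.6 CPM in Trim33-deficient libraries. Rfc5 had a log2 fold change of −0.27 (SE 0.12, 95% interval −0.58 to 0.047, edgeR adjusted p = 0.663), and the groups did not overlap. Rfc1, the large subunit, had 183 and 198 CPM against 174.5 and 173 CPM and did not overlap either. The other three subunits overlapped. Rfc3 had 59.2 and 61.3 CPM against 61.7 and 59.0 CPM, with a log2 fold change of 0.003 (SE 0.11, 95% interval −0.29 to 0.30), the value closest to 0. Rfc2 had 97.0 and 106 CPM against 104 and 106 CPM, and Rfc4 had 61.0 and 59.3 CPM against 61.7 and 51.7 CPM. Subunits of 1 complex thus had log2 fold changes from −0.27 to 0.051, and differences between subunits were not tested.

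The single-strand binding genes, which encode the 3 subunits of RPA, overlapped between the groups in every case. Rpa1 had 189.5 and 152 CPM in Control and 175.5 and 161 CPM in Trim33-deficient libraries, with a log2 fold change of −0.021 (SE 0.15). Rpa2 had 89.7 and 83.0 CPM against 83.4 and 74.5 CPM (log2 fold change −0.13, SE 0.12), and Rpa3 had 28.5 and 26.0 CPM against 30.5 and 25.8 CPM (log2 fold change 0.047, SE 0.17).

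The genes of dNTP supply held values in both directions. Tyms, thymidylate synthase, which makes dTMP from dUMP, had 45.9 and 53.1 CPM in Control and 65.3 and 63.4 CPM in Trim33-deficient libraries. Both Trim33-deficient values were above both Control values by more than the replicate gaps, at 129.9% of the Control mean. Tyms had the highest log2 fold change of the 39, 0.38 (SE 0.13, 95% interval 0.031 to 0.72, edgeR adjusted p = 0.626). Dut, the dUTPase that supplies the dUMP used by thymidylate synthase, had 102 and 87.4 CPM in Control and 83.4 and 70.0 CPM in Trim33-deficient libraries. Dut therefore had lower values where Tyms had higher ones, with a log2 fold change of −0.30 (SE 0.15, 95% interval −0.70 to 0.093, edgeR adjusted p = 0.671). Neither gene passed, and no test of the difference between them was made.

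Ribonucleotide reductase, which reduces ribonucleotides to their deoxy forms, had log2 fold changes near 0 in both subunit genes. Rrm1 had 324 and 319 CPM in Control and 345 and 336 CPM in Trim33-deficient libraries, the tightest replicates of the dNTP genes, with a log2 fold change of 0.081. Rrm2, the subunit that limits activity through the cell cycle, had 233 and 188 CPM against 238.5 and 179 CPM, with a log2 fold change of −0.014 (SE 0.20, 95% interval −0.52 to 0.50). Replicate 1 was above replicate 2 in both groups of Rrm2 by more than the groups differed. Tk1, the thymidine salvage kinase of S phase, had 27.5 and 23.6 CPM against 28.4 and 26.6 CPM and overlapped. Chaf1a, the large subunit of chromatin assembly factor 1 that deposits histones behind the fork, had 149 and 159.9 CPM against 155 and 146.5 CPM, with a log2 fold change of −0.033 (SE 0.11, 95% interval −0.31 to 0.24).

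Levels of different genes were compared per kilobase of the longest protein-coding transcript (GENCODE M21, GRCm38), in CPM per kb averaged over the 4 libraries. Mcm2 and Mcm3 were highest, at 99.3 and 96.2 CPM per kb, followed by Rrm2 at 95.6, and their Control means of 100.9 ± 11.0, 100.5 ± 3.17 and 96.0 ± 14.5 CPM per kb (SD, n = 2) did not differ beyond their spread. The 6 MCM ring genes were all among the 9 highest, from 67.4 (Mcm4) to 99.3 CPM per kb. The lowest were Gins3 at 8.15, Pole at 10.6, Cdc6 at 10.9 and Orc1 at 11.5 CPM per kb, so the range over the list was 12.2-fold. Orc1 stood well below Orc2, at 21.5 CPM per kb. The length used is that of 1 transcript and may be too long where a long isoform is annotated, as for Gins2, whose longest transcript shares 70.7% of its length with Gse1.

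Within the pairs taken by replicate number, 18 of 39 members were lower in the Trim33-deficient library of both pairs, 8 were higher in both and 13 differed in direction. Over all genes, 29.8% were lower in both pairs and 30.3% higher. The lower side of the list came mostly from the second pair. The median log2 difference was −0.037 in the first pair, with 20 of 39 below 0, and −0.12 in the second, with 29 of 39 below 0. Tyms (0.51 and 0.25), Fen1 (0.29 and 0.18) and Orc2 (0.21 and 0.19) were higher in both pairs. Orc1 (−0.47 and −0.45), Pold1 (−0.32 and −0.39), Mcm10 (−0.28 and −0.34) and Dut (−0.29 and −0.32) were lower in both by similar amounts. Mcm6 (−0.070 and −0.32) and Mcm7 (−0.050 and −0.33) were lower mainly in the second pair. Without Trim33-deficient replicate 2 the median of the 39 log2 fold changes was 0.016 with 18 below 0, and without Trim33-deficient replicate 1 it was −0.15 with 31 below 0.

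**Figure D3:**
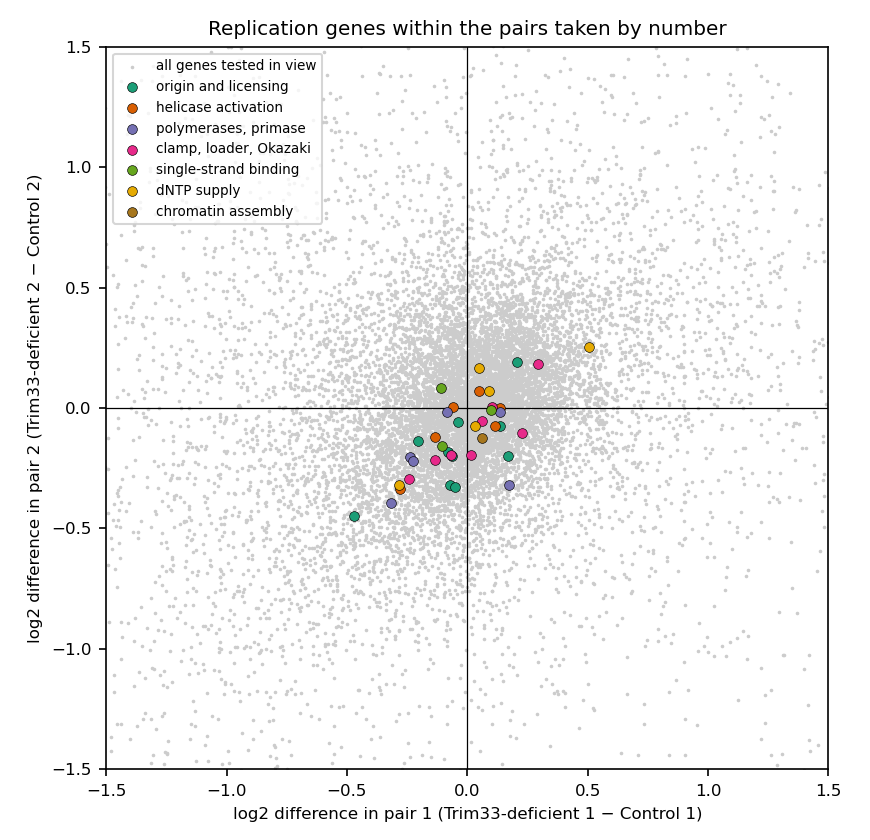
Log2 CPM difference between Trim33-deficient and Control in pair 1 (x axis) and pair 2 (y axis) for the 39 replication genes, coloured by role, over all genes tested (grey, those within 1.5 of 0 on both axes). The 18 genes in the lower left quadrant are lower in both pairs, and more points lie below 0 in pair 2 (29) than in pair 1 (20).

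Other genes of the pathway and its regulators, and genes of mitosis, were taken from 4 lists set by function, and edgeR and DESeq2 each called 0 genes in any of them. Genes with an unadjusted p under 0.05 numbered 3 lower and 0 higher among 35 other fork and origin genes, 2 and 2 among 28 other nucleotide synthesis genes, 0 and 2 among 27 E2F, RB and G1/S regulators, and 3 and 0 among 25 mitosis genes, beside 4.78% lower and 3.06% higher over all genes. Other fork and origin genes had a median log2 fold change of −0.091, with 23 of 35 below 0. Cdc7, the kinase that fires origins, had 66.8 and 60.5 CPM in Control and 44.9 and 38.3 CPM in Trim33-deficient libraries, a log2 fold change of −0.61 (SE 0.15, edgeR adjusted p = 0.530), larger in size than any of the 39 members. Mcm8, an MCM paralog of recombination repair, was at −0.55, while Chtf8 and Mcm9 were at 0.12 and 0.16.

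Other nucleotide synthesis genes had a median of −0.054, with 18 of 28 below 0, and the median was 0.011 without Trim33-deficient replicate 2 and −0.12 without Trim33-deficient replicate 1. Impdh2, a dehydrogenase of guanine nucleotide synthesis, was at −0.63 and the folate enzyme gene Shmt1 at −0.47. The mitochondrial folate enzyme gene Mthfd2 was at 0.51 and the nucleoside diphosphate kinase gene Nme1 at 0.29. The folate genes Shmt1 and Mthfd2 therefore lay on opposite sides of 0, and the dNTP members also lay on both sides.

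The regulators had a median of −0.029, with 14 of 27 below 0, and the median turned to 0.10 without Trim33-deficient replicate 2 and 0.086 without Control replicate 1. Ccne2, cyclin E2, which drives S phase entry with CDK2, was at 35.2 and 37.8 CPM in Control and 49.4 and 61.6 CPM in Trim33-deficient libraries (log2 fold change 0.60, SE 0.16, edgeR adjusted p = 0.548). Cdkn1a, which encodes the CDK inhibitor p21, was also higher in both Trim33-deficient libraries, at 184 and 238 CPM against 147.5 and 145 CPM (log2 fold change 0.53, edgeR adjusted p = 0.579). E2f1 was at −0.20, the phosphatase gene Cdc25a at −0.24 and Tfdp2, an E2F partner, at −0.29. E2f1 was added to those the rule names after its value was seen.

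Mitosis genes lay further to the lower side, with 24 of 25 below 0 and a median of −0.19. That median was −0.12 without Control replicate 2 or without Trim33-deficient replicate 2, and −0.28 without Trim33-deficient replicate 1. The groups did not overlap for 18 of 25, all lower, against 21.4% of all genes. Aurkb, the kinase of the chromosomal passenger complex, was at −0.38 and the cyclin gene Ccnb2 at −0.33, and the only value above 0 was Nuf2 at 0.013. The sum of this list was 4575 and 4988 CPM in Control and 4373 and 3994 CPM in Trim33-deficient libraries, 87.5% of the Control mean against 94.5% for the replication genes. Whether the 2 lists differ was not tested.

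**Figure D4:**
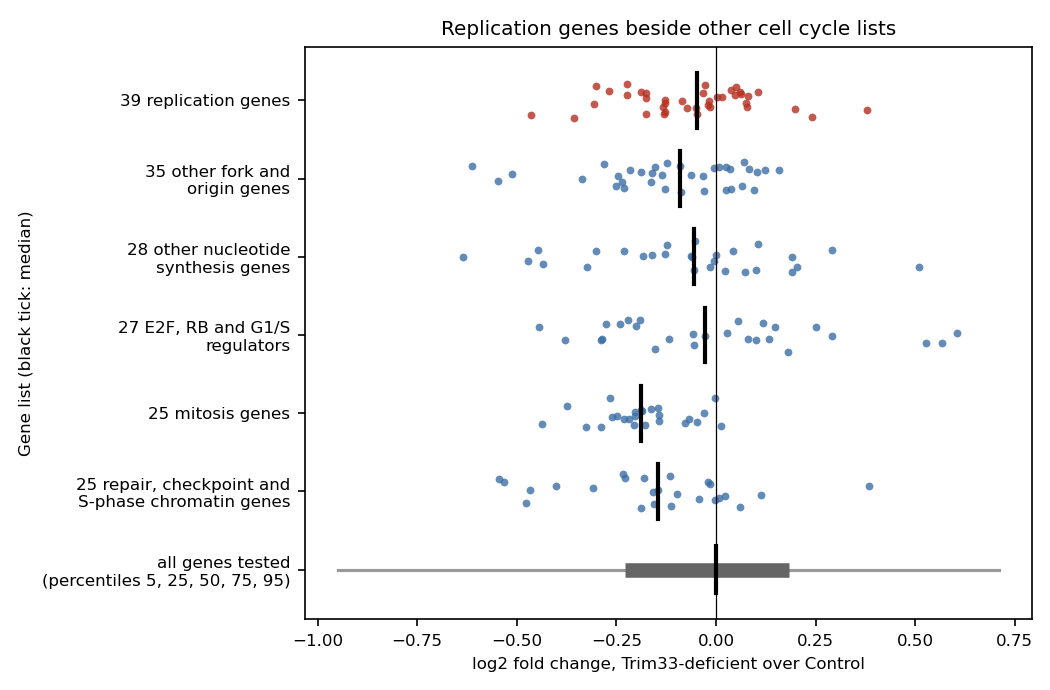
Log2 fold change (Trim33-deficient over Control, x axis) of each gene in 6 lists, 1 point per gene with a black tick at the median, beside the percentiles 5, 25, 50, 75 and 95 of all genes tested (grey bar). The 39 replication genes (red) lie around −0.047, and the mitosis genes have the lowest median, −0.19.

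Among the 32 members with a promoter entry, the 12 with an E2F-type match had a median log2 fold change of −0.15, from −0.46 to 0.061, and 9 of 12 were below 0. The 20 without a match had a median of −0.027, from −0.31 to 0.38, and 12 of 20 were below 0. Orc1, Mcm5, Mcm6 and Pola1, whose stretches are shown above, were at −0.46, −0.13, −0.19 and −0.074. Of the other genes with a match, Gins3 at 0.061, Cdc6 at 0.037 and Rfc3 at 0.003 were above 0. Below 0 were Pold1 at −0.357, Mcm7 at −0.177, Cdt1 at −0.175, Lig1 at −0.175 and Mcm3 at −0.129. The genes without a match ran from Mcm10 at −0.31 to Tyms at 0.38. These are descriptions of a split made on letters, and the difference between the 2 sets was not tested.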

How the data were processed

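Counts per gene symbol were deposited raw for 4 libraries, and STAR, HTSeq, DESeq and build mm9 appear, without versions or roles, in the submitters' processing notes. No strand setting is given in these sources. Reads assigned to no feature made up 55.5% to 56.0% of each file and stayed out of library sizes and tests. The authors' deposited table (84 genes, adjusted p-value up to 0.0496) was used only to look up members. Genes kept by filterByExpr were scaled by TMM and compared by the quasi-likelihood test of edgeR 4.0.16 (two-sided, no block, Benjamini-Hochberg over 14259 genes, threshold 0.05) in R 4.3.3. Standard errors are the absolute log2 fold change over the square root of F, and 95% intervals use the moderated degrees of freedom. A prior count of 2 went into log2 CPM. Other scalings and filters, a replicate block, each library left out, limma 3.58.1 voom, DESeq2 1.42.0 and the likelihood ratio test of edgeR were tried as alternatives. The tests were also run on simulated counts in which the changed genes differed 2-fold or more. That run does not address changes as small as those of the members.

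Members and lists were chosen with earlier results of these data known. Every member is named. Those with SE and adjusted p or interval are, per role, the 2 with the smallest p and the 1 with the largest. Other lists, apart from the cell type markers, give the 2 with the smallest p per direction. The labels speak of independent pairs, so numbers were taken as pairs. Deviations of same-numbered libraries from their group means correlated across genes (Pearson 0.236 over all genes and 0.553 over the members). This cannot show that equal numbers are pairs, since swapping the numbers within 1 group only turns the sign. Replicate counts differed beyond sampling noise (chi-square over degrees of freedom 37.6 in Control and 25.6 in Trim33-deficient), so none was a duplicate. Whether replicates are separate lines is not stated, so the p-values reflect only the spread among these libraries, which may be technical. Copies were sought with blastn (at least 95% identity over 100 bases) among GENCODE M21 transcripts, and 14 members overlap an exon of another gene, whose reads the counting may drop or cannot assign without strand.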

Additional observations from a re-analysis of the deposited data

How the results depend on the processing

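No member of the list was called under any setting that was run, with the lowest member adjusted p 0.357 (replicate block) among scalings, filters and tools and 0.217 among left-out libraries. Counts over all genes moved with the tool. Lower and higher calls numbered 113 and 23 with DESeq2, 140 and 29 with the likelihood ratio test, limma voom 0 lower, and the fit with no low-count filter 14 lower. With the replicate block, edgeR called 2 lower and 0 higher genes and 0 members at an adjusted p under 0.05, and it changed no call of a member on that scale, while members with an unadjusted p under 0.05 went from 3 to 5. Trim33 (log2 fold change −1.23, edgeR adjusted p = 0.219) was called by DESeq2 at −1.22 (adjusted p = 7.06e-06) and by the likelihood ratio test at −1.23 (adjusted p = 1.69e-05). Over the left-out libraries, genes called lower ran from 0 without either Trim33-deficient library to 66 without Control replicate 2 (10 without Control replicate 1), and genes called higher from 0 to 25, again without Control replicate 2.

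Among scalings and filters the sign turned for 3 members. Gins2 was at −0.017 with upper quartile scaling and −0.022 with library size only, Rfc3 at −0.030 and −0.036 with these and −0.004 with the stricter filter, and Cdc6 at −0.002 with library size only. Over left-out libraries the sign turned for 17 members, with ranges of −0.11 to 0.18 for Cdc6, −0.17 to 0.074 for Mcm2, −0.13 to 0.099 for Mcm4, −0.39 to 0.016 for Mcm7, −0.10 to 0.24 for Gins1, −0.11 to 0.15 for Gins2, −0.079 to 0.025 for Gins4, −0.21 to 0.070 for Pola1, −0.021 to 0.15 for Prim1, −0.15 to 0.28 for Pcna, −0.017 to 0.12 for Rfc2, −0.028 to 0.039 for Rfc3, −0.21 to 0.040 for Rfc4, −0.16 to 0.14 for Rpa1, −0.073 to 0.17 for Rpa3, −0.23 to 0.18 for Rrm2 and −0.090 to 0.025 for Chaf1a. The other 22 kept their sign. The cause of these shifts was not tested.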

Other observations

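A list of 25 repair, checkpoint and S-phase chromatin genes, added after the other values were seen, was described in the same way and not tested as a list. The median log2 fold change was −0.15, 20 of 25 were below 0, and edgeR and DESeq2 called 0 of them, with 4 lower and 1 higher at an unadjusted p under 0.05, beside 4.78% and 3.06% of all genes. Atr, the kinase that answers stalled forks, had 61.5 and 63.7 CPM in Control and 44.4 and 41.4 CPM in Trim33-deficient libraries (log2 fold change −0.54, edgeR adjusted p = 0.523). The Fanconi anaemia gene Fanci was at −0.48. Rad17, which loads the checkpoint clamp, had 33.9 and 33.7 CPM in Control and 43.2 and 45.1 CPM in Trim33-deficient libraries (log2 fold change 0.38). Rad9a, which encodes a subunit of that clamp, was at 0.11.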
